A study of Mus musculus with 10 samples.

Results

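The circadian clock genes of the mouse kidney were followed in whole kidneys of 10 mice. The set holds 10 genes, chosen by name as the core clock factors and their main output factor: the activators Arntl and Clock, the repressors Per1, Per2, Per3, Cry1 and Cry2, the REV-ERB repressors Nr1d1 and Nr1d2, and the output factor Dbp. All 10 were among the 13837 genes with values, and all 10 passed the filter on low values. The rule that names them uses no measured value.

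Every mouse was 3 months old. One group carried the wild-type Rragc gene, labelled RagC S74N (+/+) (n = 5), and the other carried 1 knock-in copy of the S74N allele, labelled RagC S74N (KI/+) (n = 5). Rragc encodes RagC, a GTPase that relays nutrient sufficiency to the kinase complex mTORC1, and the knock-in, made by gene editing in embryos, is present in every cell of the body, so a difference in kidney RNA need not start in the kidney. The study sequenced kidneys at an age before inflammation or damage was evident, to look for altered signals from organs to which myeloid cells might respond. Sex was not stated for these kidneys in the labels; the 4 Y-linked transcripts Ddx3y, Eif2s3y, Kdm5d and Uty were present in all 10. The hour at which the kidneys were taken, the feeding state and whether the genotypes were taken in turn are not given in the sources used here.

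Libraries were made from poly(A) tails, so reads fall near the 3′ end of a transcript, and each value is a read count divided by a size factor of its library, here called a normalized count. The reads on genes numbered 6501552 to 7856363 in +/+ and 6872310 to 7996087 in KI/+ kidneys. The library codes in the sample titles were split here into 2 runs at the widest gap in their numbers. The first run holds +/+ 1, +/+ 2 and KI/+ 1, and the second holds the other 7 kidneys. Within the second run, the code of KI/+ 5 stands apart from the codes of the other kidneys, which are consecutive. KI/+ 5 was kept in the second run throughout. The labels do not say what the runs stand for, and 1 KI/+ kidney in the first run is too few to compare genotypes there. The kidney identity was clear from tubule and podocyte markers, of which 12 of 12 were measured. Of these, 4 were lower in KI/+ kidneys (limma, adjusted p under the threshold of 0.05): Slc5a2, Umod, Slc12a3 and Slc4a1. Among all genes tested, 3.69% passed this threshold, higher or lower. Their part in the clock values was not tested. Markers of adipocytes and of the adrenal cortex were not analysed here. Rragc itself had 285 ± 42.3 normalized counts in +/+ and 216 ± 23.6 in KI/+ kidneys (SD, n = 5 each; limma, adjusted p = 0.0678; DESeq2, adjusted p = 0.0312); reads near the 3′ end do not cover the edited codon and do not check the genotype. In whole tissue, fewer cells of a type and less RNA per cell cannot be told apart.

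As background, the clock is a loop of transcription that takes about a day. CLOCK and BMAL1, the product of Arntl, bind together to E-boxes and switch on the Per and Cry genes, the Nr1d genes and Dbp. PER and CRY proteins then return to the nucleus and silence CLOCK and BMAL1. In a second loop, the REV-ERB proteins made from Nr1d1 and Nr1d2 bind RORE elements, where ROR proteins activate, and hold Arntl down. DBP and its relatives TEF and HLF activate D-box genes such as Per3, and NFIL3 represses them. In peripheral organs of the mouse, kidney included, Arntl messenger RNA peaks in the opposite part of the day to Dbp, and Nr1d1 and Dbp peak ahead of Per2 and Cry1. The level of these genes in one sample therefore depends on the hour at which it was taken. In the kidney, clock output takes part in the daily rhythm of sodium and water handling.

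The motifs through which these factors act can be read in the promoters of the set. They are shown because they are the elements of the loops described above. RefSeq promoter windows (GRCm38.p6, an older build than the GRCm39 of the expression values) run from 250 bases before to 50 bases after each start. They were found for 9 of the 10 genes, with 13 windows in all. Both strands were searched for the E-box CACGTG, the E-prime box CACGTT, the D-box TTATGTAA or TTACGTAA, and the RORE TAGGTCA or TGGGTCA. No motif contains another. Of all 32851 windows of the same length, 7.15% hold the E-box, 4.68% the E-prime box, 1.06% the D-box and 6.45% the RORE. A motif was found for 6 of the 10 genes. The stretches below are written 5′ to 3′ on the strand of the gene, with the motif in capitals; AACGTG is the E-prime box read on the other strand.
Per1, chr11:69098756-69098815, plus strand, E-box: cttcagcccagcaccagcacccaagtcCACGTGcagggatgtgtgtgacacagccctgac
Cry1, chr10:85185092-85185151, minus strand, E-prime box and E-box: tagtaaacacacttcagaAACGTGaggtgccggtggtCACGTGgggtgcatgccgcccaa
Cry2, chr2:92434203-92434262, minus strand, E-prime box: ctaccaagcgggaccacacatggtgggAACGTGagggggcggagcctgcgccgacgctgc
Nr1d1, chr11:98775378-98775437, minus strand, E-prime box: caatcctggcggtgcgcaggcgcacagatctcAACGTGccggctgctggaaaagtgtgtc
Per3, chr4:151044804-151044883, minus strand, D-box: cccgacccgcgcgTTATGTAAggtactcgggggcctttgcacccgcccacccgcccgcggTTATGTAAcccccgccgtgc
Arntl, chr7:113207529-113207558, plus strand, RORE: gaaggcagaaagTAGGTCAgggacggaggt

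The E-box of Per1 begins 166 bases before the start, and that of Cry1 begins 60 bases before it. The E-prime boxes begin 79 bases before the start in Cry1, 166 in Cry2 and 28 in Nr1d1. Per3 holds 2 D-boxes, which begin 205 and 158 bases before the start, and the RORE of Arntl begins 31 bases after it. The windows of Clock, Nr1d2 and Dbp hold none of these letters, which says only that the letters are not in those windows. A match is a description of the sequence and not evidence that a factor binds there in the kidney.

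The genotype comparison asked whether the clock genes of KI/+ kidneys differed from those of +/+ kidneys. Over all genes, 487 of 13197 tested passed an adjusted p of 0.05, which is 3.69% (limma on log2(normalized count + 1), two-sided, Benjamini-Hochberg over all genes tested). Of the clock genes, 0 of 10 passed. At an unadjusted p under 0.05 the count was 2 of 10, Arntl and Per2, against 15.4% of all genes tested. All values of one genotype lay beyond all values of the other for 5.0% of the genes tested, and for 0 of the 10 clock genes. On the recovered whole reads, edgeR and DESeq2 also called 0 of 10, with 1 of 10 at an unadjusted p under 0.05 in each. The median log2 fold change of the 10 genes was 0.11, beside a median of 0.00046 over all genes tested. Fold changes are KI/+ minus +/+ on this log scale, which understates the change of low genes.

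**Figure D1:**
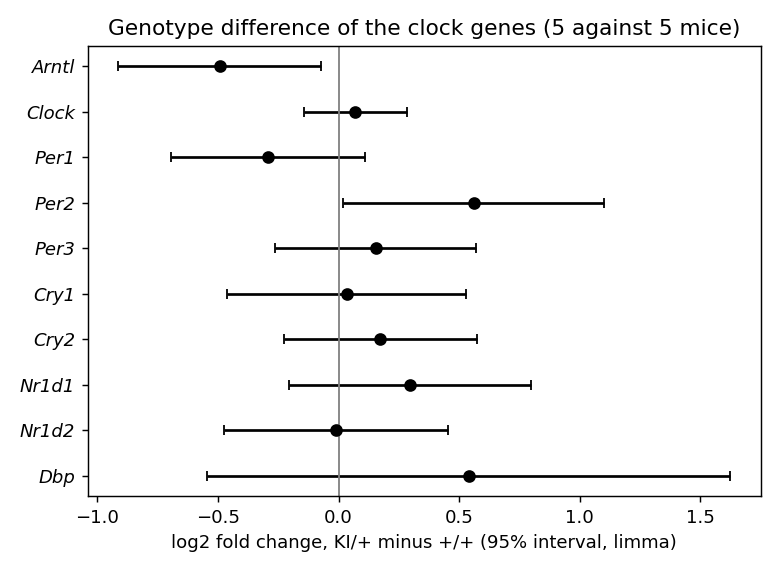
Log2 fold change (x axis, KI/+ minus +/+) of the 10 clock genes (y axis), with the 95% confidence interval from limma, 5 against 5 mice. The intervals of Arntl and Per2 do not reach 0, but neither gene passed the adjustment over all genes, and the interval of Dbp, from -0.54 to 1.62, is the widest.

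Arntl encodes BMAL1, the partner of CLOCK in the activating arm. It had 69.4, 94.3, 59.0, 81.5 and 75.8 normalized counts in +/+ kidneys 1 to 5, and 85.4, 43.7, 39.9, 44.5 and 63.2 in KI/+ kidneys 1 to 5. The KI/+ kidneys 2, 3 and 4 lay below every +/+ kidney, while KI/+ 1 lay above all +/+ kidneys but one. The means were 76.0 ± 13.2 and 55.3 ± 19.1 (SD, n = 5 each), a log2 fold change of -0.49 (SE 0.20, 95% interval -0.91 to -0.07, limma adjusted p = 0.226, exact permutation test p = 0.0794). Within the second run of library codes, Arntl was at -0.59 on the log2 scale (adjusted p = 0.169 by limma), and without KI/+ 1 it was -0.66 (adjusted p = 0.0665). Without KI/+ 3 it was -0.39 (limma, adjusted p = 0.372), and with the run as a covariate -0.40 (adjusted p = 0.225). These -0.66 and -0.39 were the ends of its range over 21 alternatives.

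Clock encodes the other activator, whose messenger RNA is known to change little over the day in most organs. Its 10 values ran from 288 to 378 normalized counts, with means of 328 ± 35.5 in +/+ and 344 ± 32.8 in KI/+ kidneys (SD, n = 5 each). The log2 fold change was 0.07 (95% interval -0.14 to 0.28, limma adjusted p = 0.813), and the genotypes overlapped over almost their whole range.

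Per1 and Per2 encode period repressors that respond to hormones and feeding as well as to the clock. Per2 had 75.8, 58.7, 28.4, 28.9 and 39.5 normalized counts in +/+ kidneys 1 to 5, and 66.4, 74.3, 39.9, 65.2 and 81.7 in KI/+ kidneys 1 to 5. The +/+ kidneys split by run of library codes, with +/+ 1 and +/+ 2 among the KI/+ values and the other 3 below all of them. The means were 46.3 ± 20.6 and 65.5 ± 15.8 (SD, n = 5 each), a log2 fold change of 0.56 (SE 0.26, 95% interval 0.02 to 1.10, limma adjusted p = 0.301, exact permutation test p = 0.119).

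Within the second run, Per2 lay at 28.4 to 39.5 in 3 +/+ kidneys and at 39.9 to 81.7 in 4 KI/+ kidneys. The nearest values, 39.5 in +/+ 5 and 39.9 in KI/+ 3, were almost equal. The log2 fold change of Per2 within the second run was 0.96 (limma, adjusted p = 0.0663), and with the run as a covariate it was 0.69 (adjusted p = 0.0866). With both runs, it was 0.42 without +/+ 3 (limma, adjusted p = 0.513) and 0.47 without KI/+ 5 (adjusted p = 0.467). Without +/+ 1 it was 0.76 (limma, adjusted p = 0.101). What the runs of library codes stand for was not tested. Per1 pointed the other way, with 83.2 ± 17.4 in +/+ and 68.1 ± 16.8 in KI/+ kidneys, or -0.29 on the log2 scale (95% interval -0.69 to 0.11, adjusted p = 0.526 by limma). Per1 was at -0.50 within the second run and at -0.15 without KI/+ 5. Its highest value, 99.8, was in +/+ 3, the kidney with the lowest Per2, and its lowest, 44.8, was in KI/+ 5, the kidney with the highest Per2.

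Per3, whose promoter holds the pair of D-boxes, had 132, 118, 116, 191 and 183 normalized counts in +/+ kidneys 1 to 5, and 126, 217, 187, 202 and 104 in KI/+ kidneys 1 to 5. The kidneys +/+ 4, +/+ 5 and KI/+ 2 to 4 lay at 183 or above, and the others lay at 132 or below, with both genotypes on each side. The means were 148 ± 36.1 and 167 ± 49.4 (SD, n = 5 each), with a log2 fold change of 0.15 (95% interval -0.26 to 0.57, limma adjusted p = 0.787). Leaving out single kidneys moved it from 0.05 (KI/+ 2) to 0.31 (KI/+ 5), and every kidney but +/+ 1 moved it by over 1.5 times.

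Cry1 and Cry2 encode the cryptochromes, the stronger repressors of the pair of families. Cry1 had 49.3, 37.4, 39.7, 24.7 and 38.4 normalized counts in +/+ kidneys 1 to 5, and 40.8, 26.02, 37.8, 30.6 and 63.2 in KI/+ kidneys 1 to 5. The lowest value was in +/+ 4 and the highest in KI/+ 5. Its log2 fold change was 0.03 (95% interval -0.46 to 0.53, limma adjusted p = 0.968), and the direction turned when +/+ 4 (-0.11) or KI/+ 5 (-0.15) was left out. Cry2 ranged from 45.9 to 66.5 in +/+ and from 39.8 to 84.1 in KI/+ kidneys, with a log2 fold change of 0.17 (95% interval -0.23 to 0.57, limma adjusted p = 0.744). It was 0.32 without KI/+ 1, 0.06 without KI/+ 3 and 0.09 without KI/+ 5.

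Nr1d1 and Nr1d2 encode REV-ERB alpha and REV-ERB beta, heme-binding repressors of Arntl. Nr1d1 had 141, 72.0, 120, 191 and 164 normalized counts in +/+ kidneys 1 to 5, and 178, 249, 154, 162 and 97.3 in KI/+ kidneys 1 to 5. KI/+ 2 stood highest and +/+ 2 lowest, and the other values of both genotypes were mixed. The log2 fold change was 0.30 (95% interval -0.20 to 0.80, limma adjusted p = 0.626). It was 0.01 within the second run, 0.09 without +/+ 2, 0.14 without KI/+ 2 and 0.48 without KI/+ 5.

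Nr1d2 had 269, 277, 358, 467 and 365 normalized counts in +/+ kidneys 1 to 5, and 230, 512, 396, 462 and 204 in KI/+ kidneys 1 to 5. The lowest pair and the highest value were all KI/+ kidneys, so the KI/+ values enclosed all +/+ values. The means were 347 ± 80.5 and 361 ± 138 (SD, n = 5 each), and the log2 fold change was -0.01 (95% interval -0.48 to 0.46, limma adjusted p = 0.990). Its sign was opposite under edgeR (0.05) and DESeq2 (0.05).

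Dbp encodes a PAR bZIP activator that is a direct E-box target and carries the clock's signal to D-box genes. It had 17.3, 16.0, 28.4, 66.5 and 45.9 normalized counts in +/+ kidneys 1 to 5, and 14.2, 98.5, 85.1, 86.0 and 15.6 in KI/+ kidneys 1 to 5. The 3 highest and the 2 lowest of the 10 kidneys were all KI/+, and the +/+ kidneys lay between them. The highest value was 6.92 times the lowest. The means were 34.8 ± 21.4 and 59.9 ± 41.4 (SD, n = 5 each), a log2 fold change of 0.54 (SE 0.51, 95% interval -0.54 to 1.62, limma adjusted p = 0.697). Leaving out KI/+ 1 gave a log2 fold change of 0.93 (adjusted p = 0.437) and leaving out KI/+ 2 gave 0.25 (adjusted p = 0.875), and every kidney but +/+ 3 and +/+ 5 moved this value by over 1.5 times without bringing it past the threshold.

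Dbp was also split by run of library codes. The 3 kidneys of the first run, of both genotypes, had 14.2 to 17.3 normalized counts, and of the 7 kidneys of the second run only KI/+ 5, at 15.6, was as low. The code of KI/+ 5 is also the one that stands apart in that run. Among the consecutive codes, Dbp was 28.4 to 66.5 in +/+ 3 to 5 and 85.1 to 98.5 in KI/+ 2 to 4. That grouping was made after the values had been seen and is given with no test. Within the whole second run, KI/+ 5 included, Dbp was 28.4 to 66.5 in +/+ and 15.6 to 98.5 in KI/+ kidneys, and the fold change on the log2 scale was 0.39 (adjusted p = 0.763 by limma). With the run as a covariate it was 0.22 (adjusted p = 0.821), less than the 0.54 without it by over 1.5 times. What the run stands for was not tested.

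**Figure D2:**
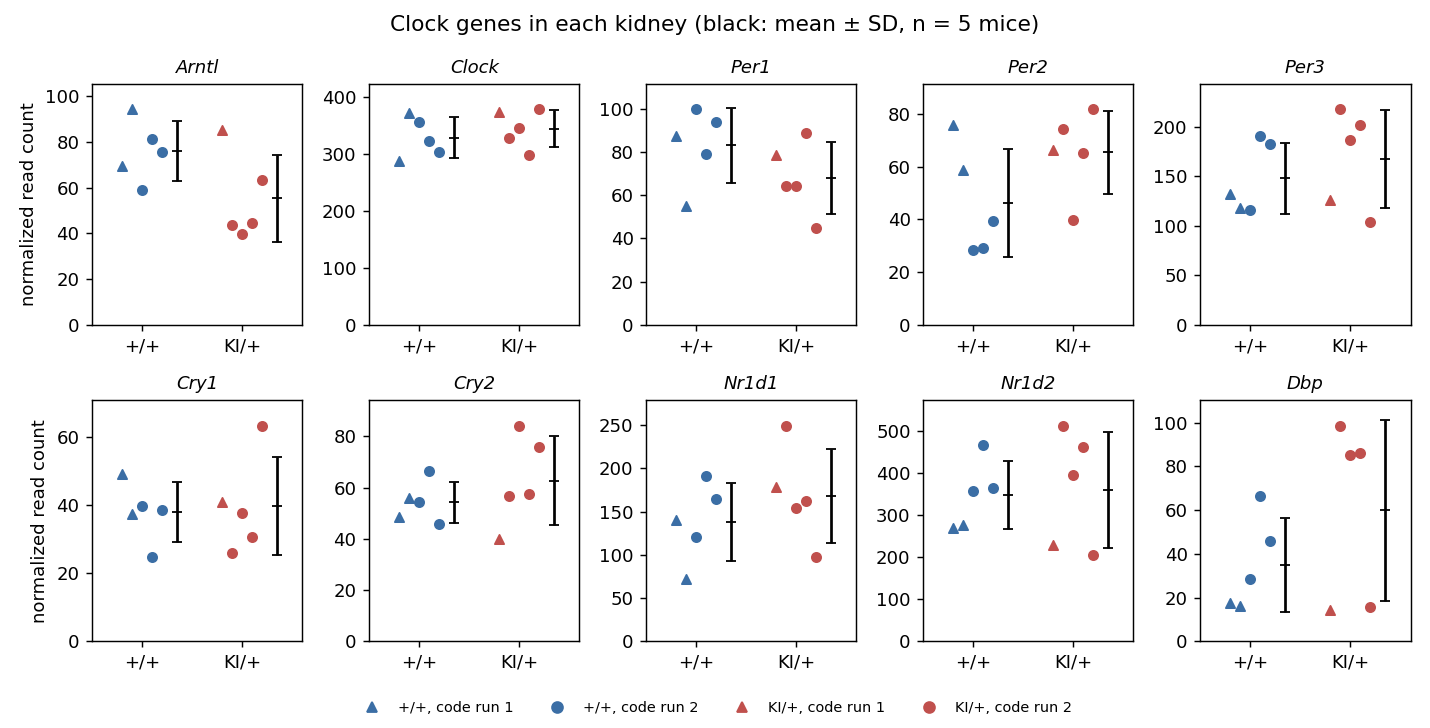
Normalized read count (y axes, from 0) of each of the 10 clock genes in 5 +/+ and 5 KI/+ kidneys; each point is 1 mouse, triangles are the first and circles the second run of library codes, and black bars are the mean ± SD. The genotypes overlap for all 10 genes, and Dbp ranges from 14.2 to 98.5.

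The spread among mice of one genotype was wide for some of these genes. As a description, the SD of log2(normalized count + 1) around the genotype means was 1.15 for Dbp, larger than for 99.8% of all genes tested. Because low counts spread more, each gene was also set beside genes whose mean lay within 0.5 on the log2 scale of its own. Nr1d2 (SD 0.48) was more spread than 98.9% of such genes, Nr1d1 (0.51) than 98.3%, Per3 (0.41) than 96.5% and Per2 (0.51) than 96.2%. Per1 (85.5%), Arntl (84.2%), Cry1 (78.4%) and Cry2 (71.3%) followed. Clock, with an SD of 0.15, was more spread than 37.9% of genes at its level. Set beside genes at their level, the most spread were thus Dbp, the REV-ERB genes, Per3 and Per2, and Clock was the steadiest of the set. By SD alone, Cry1 (0.42) was slightly above Per3 (0.41).

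The levels can be read kidney by kidney. KI/+ 2 had the highest Dbp, Nr1d1, Nr1d2 and Per3 of the 10 kidneys and ranked 9 for Arntl and for Cry1. KI/+ 4 ranked 2 for Dbp and Per3, 3 for Nr1d2 and 8 for Arntl, and KI/+ 3 ranked 3 for Dbp, 4 for Nr1d2 and Per3, and 10 for Arntl. These 3 kidneys shared high Dbp, Nr1d2 and Per3 with low Arntl. The kidney +/+ 4 was near them in Dbp (rank 4), Nr1d2 (rank 2) and Per3 (rank 3), and had the lowest Cry1, but ranked 3 for Arntl. For Nr1d1, +/+ 4 ranked 2, while KI/+ 3 and KI/+ 4 ranked 6 and 5.

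At the other end, KI/+ 5 had the lowest Per1, Per3 and Nr1d2 and the highest Clock, Per2 and Cry1, and it ranked 9 for Dbp. KI/+ 1 had the lowest Dbp and Cry2 and ranked 2 for Arntl, but ranked 3 for Nr1d1. The kidney +/+ 2 had the highest Arntl and the lowest Nr1d1. The kidney +/+ 1 ranked 7 for Dbp and 2 for both Per2 and Cry1. The kidneys +/+ 3 and +/+ 5 stood in the middle for Dbp, at ranks 6 and 5, and ranked 1 and 2 for Per1. The KI/+ kidneys held both ends of the order of Dbp, and the low end was shared with 2 +/+ kidneys of the first run.

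**Figure D3:**
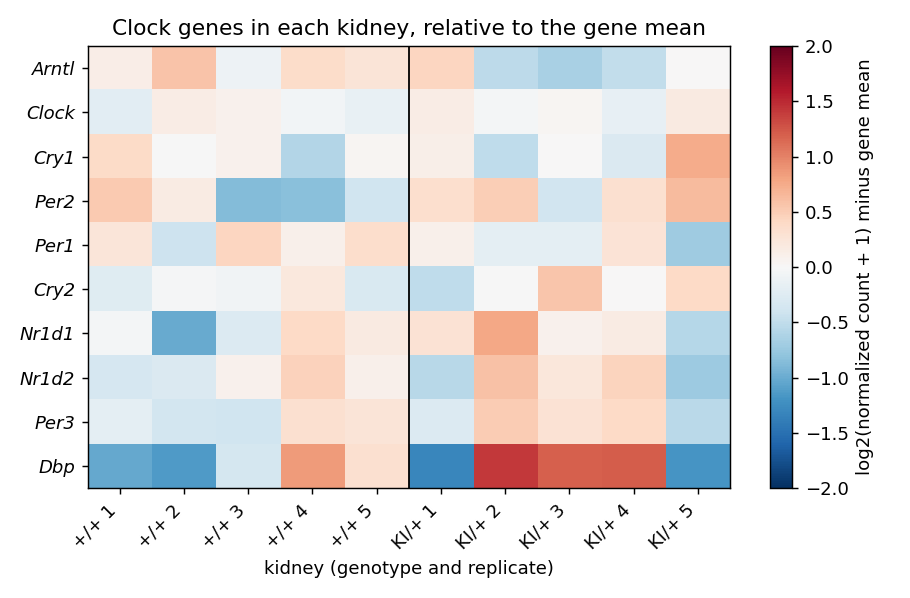
Color shows log2(normalized count + 1) minus the mean of the gene over the 10 kidneys, with 1 row per clock gene and 1 column per kidney; a line separates +/+ from KI/+ kidneys. Dbp, Nr1d2 and Per3 are high together in KI/+ 2 to 4 and in +/+ 4, and low together in KI/+ 1, KI/+ 5, +/+ 1 and +/+ 2.

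A difference of Dbp and Arntl, whose messenger RNAs peak at opposite times, was taken as a description of each kidney. It is log2(Dbp + 1) minus log2(Arntl + 1), and since the 2 transcripts need not be captured equally, only its differences between kidneys are read. It was -1.94, -2.49, -1.03, -0.29 and -0.71 in +/+ kidneys 1 to 5, and -2.50, 1.16, 1.07, 0.94 and -1.96 in KI/+ kidneys 1 to 5. KI/+ 2, KI/+ 3 and KI/+ 4 lay above, and KI/+ 1 lay just below, the whole range of the +/+ kidneys. The SD was 1.81 in KI/+ and 0.90 in +/+ kidneys; this difference in spread was not tested.

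The means of this measure were -1.29 and -0.26, so that KI/+ lay 1.03 higher, less than the SD among KI/+ kidneys. The difference was 0.98 within the second run, 1.59 without KI/+ 1 and 0.68 without KI/+ 2. When the mean of 6 genes (Per1, Per2, Per3, Nr1d1, Nr1d2, Dbp) minus that of 3 (Arntl, Clock, Cry1) was used instead, it was 0.34, with an SD of 0.40 in +/+ and 0.78 in KI/+ kidneys. The 3 kidneys of the first run lay between -2.50 and -1.94, +/+ and KI/+ alike. No test is given, since the measure is built from members of the set.

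**Figure D4:**
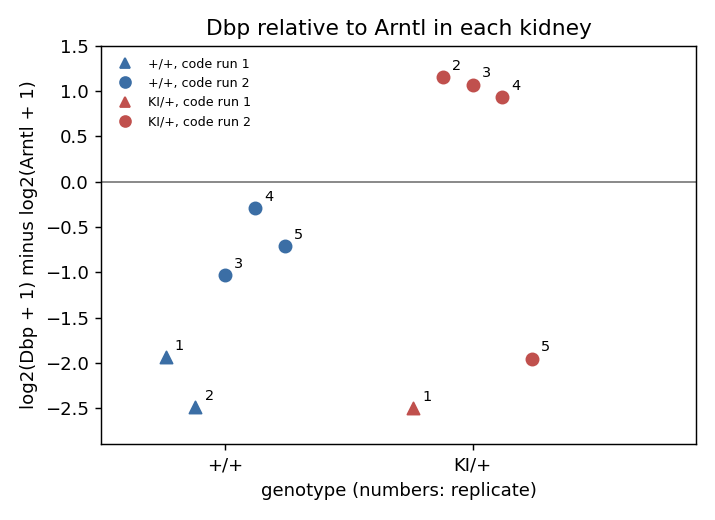
The difference log2(Dbp + 1) minus log2(Arntl + 1) (y axis) for each kidney by genotype (x axis); numbers name the replicate, triangles are the first and circles the second run of library codes. KI/+ 2 to 4 lie between 0.94 and 1.16, and KI/+ 1 and KI/+ 5 lie near the first-run +/+ kidneys at -2.50 and -1.96.

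Whether the kidneys differed along one shared order was examined by correlation over the 10 kidneys on the log2(normalized count + 1) scale. Against Arntl, the relation farthest from 0 of the 9 computed was that of Dbp (Pearson r = -0.70, permutation test p = 0.0314, Benjamini-Hochberg adjusted over the 9 p = 0.282; Spearman rho = -0.68, adjusted p = 0.310). It was -0.71 with each genotype's mean removed, -0.49 in the second run and -0.48 without KI/+ 2 and KI/+ 3, the 2 kidneys farthest from the median of Arntl, so it rested partly on those kidneys. None of the 9 relations with Arntl passed the adjustment.

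Dbp was then taken as the reference, a choice made after its wide spread had been seen, with 25 relations to the other clock genes and to temperature-linked genes. Nr1d2 followed Dbp most closely (r = 0.94, permutation test p = 0.0002, adjusted over the 25 p = 0.005; rho = 0.94, adjusted p = 0.006). The r was 0.97 with each genotype's mean removed, 0.91 in the second run and 0.90 without KI/+ 1 and KI/+ 2, the 2 kidneys farthest from the median of Dbp. In the second run its adjusted p was 0.0714 by the permutation test, so the call was lost there. Per3 followed with r = 0.93 (permutation test p = 0.00186, adjusted p = 0.0232; rho = 0.87, adjusted p = 0.0315), 0.96 in the second run and 0.92 without those 2 kidneys, where its call was lost (adjusted p = 0.0649). The same scale of likeness was rare among other genes: 0.0303% of the genes tested, Dbp and Nr1d2 themselves included, had an r with Dbp at least that of Nr1d2.

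Cry1, a repressor (r = -0.75), and Tef, a relative of Dbp (r = 0.77), each had an adjusted p of 0.0614 by the permutation test. Both passed with each genotype's mean removed (permutation test, adjusted p = 0.0255 each). In the second run neither passed (permutation test, adjusted p = 0.112 for Cry1 and 0.0714 for Tef). Without KI/+ 1 and KI/+ 2, Tef passed and Cry1 did not (permutation test, adjusted p = 0.0310 and 0.146). Nr1d1 had r = 0.66 (permutation test, adjusted p = 0.124), and Arntl had -0.70 (adjusted p = 0.124).

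On the log2(normalized count + 1) scale the widest step in Dbp, by a narrow margin, was from 17.3 to 28.4 normalized counts, with 4 kidneys below it and 6 above. Within the 6 kidneys above it, a range chosen after the values had been seen and given with no test, r with Dbp was 0.91 for Per3, 0.80 for Nr1d2, 0.73 for Nr1d1, -0.60 for Cry1 and -0.56 for Arntl, all in the direction seen over 10 kidneys. For Per1 it was -0.79 and for Per2 0.72, opposite in sign to the values over 10 kidneys (0.21 and -0.32).

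**Figure D5:**
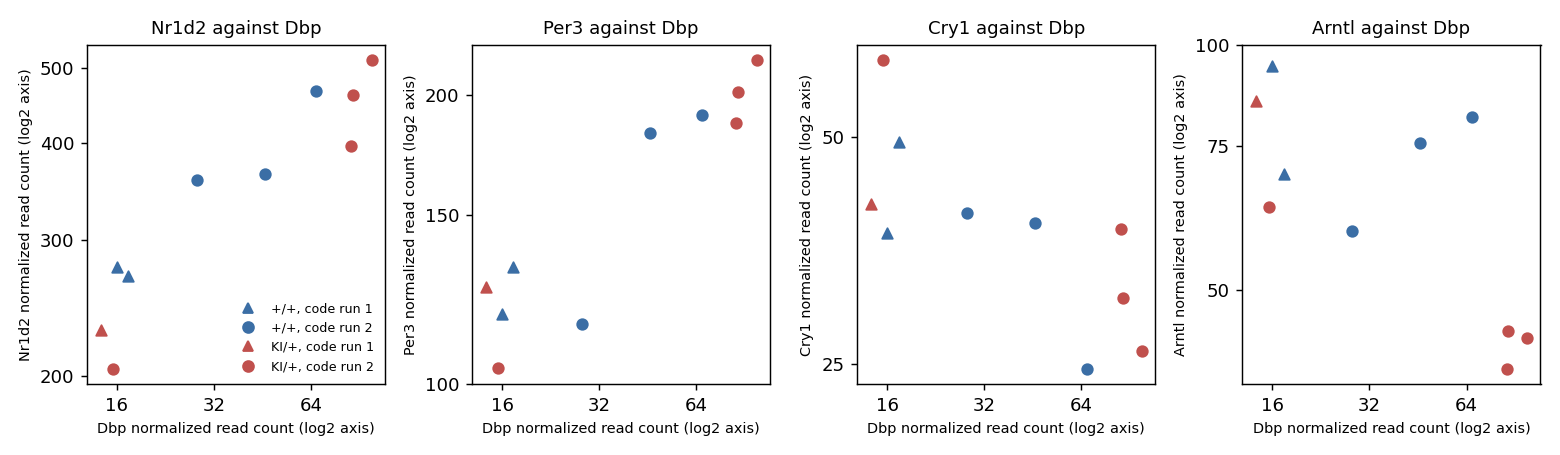
Normalized counts of Nr1d2, Per3, Cry1 and Arntl (y axes, log2) against Dbp (x axis, log2) in 10 kidneys; colors are genotypes and shapes are runs of library codes. Nr1d2 and Per3 climb with Dbp across both genotypes (r = 0.94 and 0.93), and Cry1 and Arntl descend (r = -0.75 and -0.70).

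The other genes of the loop were taken from a list of 11, of which 8 were tested and 0 passed. They hold the PAR bZIP factors Tef and Hlf, the D-box repressor Nfil3, the BMAL1-related activator Npas2, the RORs and others. Tef had 1104 ± 148 normalized counts in +/+ and 1511 ± 343 in KI/+ kidneys, which was 0.43 on the log2 scale (adjusted p = 0.119 by limma). Its KI/+ values were 1346, 1593, 1733, 1875 and 1007, so that KI/+ 5 lay apart from the other 4. Without KI/+ 5 the limma adjusted p of Tef was 0.00664, and this was the only 1 of 21 alternatives in which it passed. Within the second run its limma adjusted p was 0.338. Nfil3 had a log2 fold change of -0.59 (adjusted p = 0.399) and ranged from 49.3 to 157 in +/+ and 25.1 to 79.9 in KI/+ kidneys. The log2 fold changes of Npas2, Rora, Bhlhe40, Timeless and Hlf lay between -0.16 (Npas2) and 0.14 (Hlf).

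Of 12 genes that act on the stability or modification of clock proteins, 11 were tested and 1 passed, beside 3.69% of all genes tested. Usp2, a deubiquitinase with clock proteins among its substrates and a transcript that is itself rhythmic, was higher in KI/+ kidneys. It had 1084, 750, 869, 877 and 827 normalized counts in +/+ kidneys 1 to 5, and 1113, 1263, 1154, 1217 and 1131 in KI/+ kidneys 1 to 5. All KI/+ kidneys lay above all +/+ kidneys, although KI/+ 1 and +/+ 1 differed little. The log2 fold change was 0.42 (SE 0.09, 95% interval 0.23 to 0.62, limma adjusted p = 0.0131), and 0.47 within the second run (adjusted p = 0.00968). The call was lost in limma without a variance trend (adjusted p = 0.0751) and without +/+ 5 (adjusted p = 0.0501). Among the other genes, the kinases Csnk1d, Csnk1e, Csnk1a1 and Gsk3b had log2 fold changes between -0.12 and 0.06.

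Of 11 genes often rhythmic downstream of the clock, 11 were tested and 1 passed, as 1 higher and 0 lower, beside 3.69% of all genes tested. Avpr2, the vasopressin receptor of the collecting duct and thick limb, had 153, 152, 112, 120 and 108 normalized counts in +/+ kidneys 1 to 5, and 217, 292, 193, 227 and 266 in KI/+ kidneys 1 to 5. The groups did not overlap. Its log2 fold change was 0.88 (SE 0.14, limma adjusted p = 0.000756), and it passed under all 21 alternatives, with values from 0.81 to 1.09. The principal cell markers Aqp2 (0.54, adjusted p = 0.0887) and Scnn1g (0.66, adjusted p = 0.0502) had positive log2 fold changes as well, and their part in the value of Avpr2 was not tested. The order of the KI/+ kidneys was not that of Dbp: KI/+ 5, among the lowest in Dbp, had 266, and KI/+ 3, among the highest, had 193. Por, the electron donor of cytochromes P450, had 0.29 (adjusted p = 0.0626), and Scnn1a, the alpha subunit of the epithelial sodium channel, had -0.35 (adjusted p = 0.0613).

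Over 9128 genes outside the set whose mean reached 50 normalized counts, those most like Arntl over the 10 kidneys included Fn3k (r = 0.91) and Rnd2 (0.90). Those most like Dbp were Hoga1 (0.96), an enzyme of hydroxyproline breakdown, Atp13a1 (0.95) and Stard4 (0.94), a sterol carrier. These were the highest of many values, are given with no test, and the kidneys share their library runs. None of these 5 genes passed the genotype test, with adjusted p from 0.136 to 0.770 (limma).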

How the data were processed

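Kidney RNA of 5 +/+ and 5 KI/+ mice was analysed, 1 library per mouse, with genotypes from the labels. Per the methods and labels, the authors made QuantSeq 3′ libraries, aligned reads with TopHat2 2.0.10 (Bowtie 1.0.0, SAMtools 0.1.19) to GRCm39, allowing multiple hits, and counted them with HTSeq 0.6.1 by strand on GENCODE vM26. For each gene and mouse the authors deposited a signal, which is a read count over a size factor. All values were whole reads after undoing this division (100% within 0.01 reads), and 0 value columns were left unmatched. The lowest gene mean was 5.64, so rarer genes were not analysed here.

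The members were named by their known role, but this set, the gene lists and the tests were chosen with earlier results of these data known. Named were the 10 clock genes, Rragc, called genes of the lists, examples of the clock loop and turnover lists, the 3 genes most like Arntl and Dbp, and, chosen after their values were seen, those of other lists. A few genes covered by this rule are not reported here. Limma 3.58.1 in R 4.3.3 (with trend) was fitted to log2(value + 1) of the 13197 genes with at least 10 in at least 5 mice. Recovered reads were tested with edgeR 4.0.16 and DESeq2 1.42.0 as alternatives. Exact permutation tests used all splits into 5 and 5 mice (smallest possible p = 0.00794), and correlations 100000 permutations (scipy 1.17.1), or all orders in 7 or 8 kidneys. Nothing states that mice were handled independently, so p-values measure the spread between these samples.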

Additional observations from a re-analysis of the deposited data

How the results depend on the processing

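The count of clock genes called was 0 under each of the 21 alternatives (other pseudocounts, filters, scalings, tools, the run of library codes, and each mouse left out); a mean of at least 50 left 8 of the 10 to test. The count over all genes, 487 (220 higher, 267 lower), became 291 in limma without the trend (103 higher, 188 lower), 832 with the run of library codes as a covariate, and 295 to 466 with single mice left out (310 without +/+ 4, 295 without +/+ 5). Of 208 recomputed fold changes of clock genes, 199 kept their direction and 9 reversed: Cry1, from -0.15 to 0.16 with single mice left out, and Nr1d2, from -0.16 to 0.17 with single mice left out, 0.0519 in edgeR and 0.0541 in DESeq2. Among correlations with Arntl, 5 of 45 recomputed values reversed: Clock in the second run (-0.0308), Per1 with genotype means removed (-0.328) and without the 2 farthest kidneys (-0.279), Per2 with genotype means removed (0.340), and Cry1 without the 2 farthest kidneys (-0.0422). Among those with Dbp, a family added after seeing the data, 2 of 125 reversed in the second run (Cry2, -0.0633; Rora, -0.314) and 9 changed their side of the threshold; Nr1d2 lost its call in the second run (permutation test, adjusted p = 0.0714) and Per3 without the 2 farthest kidneys (0.0649). The cause was not tested in any of these. No paired analysis was possible because the labels carry no replicate numbers shared between genotypes. Dbp (14.2 to 98.5 normalized counts) and Cry1 (24.7 to 63.2) rest on few reads, which limits their precision.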

Other observations

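Further lists were examined because their genes respond to signals that reach the clock. Of 8 glucocorticoid-responsive genes, 8 were tested and 0 passed between genotypes (limma). Sgk1, a kinase that raises sodium uptake, had 324 ± 102 normalized counts in +/+ and 555 ± 288 in KI/+ kidneys (SD, n = 5 each; log2 fold change 0.67, limma adjusted p = 0.211), and Klf9 had 3067 ± 429 and 2404 ± 493 (-0.36, adjusted p = 0.149). Of 9 immediate early genes, 4 were tested and 0 passed. Of 8 temperature-linked genes, 8 were tested and 0 passed.

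Over the 10 kidneys, the 6 heat-shock genes had r with Dbp between -0.63 (Hspa1a) and -0.47 (Hspa8), and the cold-inducible genes Cirbp and Rbm3 had 0.62 and 0.54. None of the 8 passed the adjustment over the 25 relations (permutation test, adjusted p from 0.124 to 0.226). With each genotype's mean removed, Hsp90aa1 passed (permutation test, r = -0.81, adjusted p = 0.0277). In the second run its r was -0.53 (permutation test, adjusted p = 0.621). Without KI/+ 1 and KI/+ 2 it was -0.62 (adjusted p = 0.203). Within the 6 kidneys above the widest step in Dbp, given with no test, all 6 heat-shock genes had positive r. These values ran from 0.35 (Hsph1) to 0.70 (Hspa8), and Cirbp had -0.51 and Rbm3 0.52. The part of temperature in the level of Dbp was not tested.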
